A study of Mus musculus with 4 samples.

Results

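The nuclei described here are excitatory neurons of mouse brain that hold the transcript of Rorb, a nuclear receptor of the retinoid-related orphan family, together with transcripts that follow it in these libraries, among them Igfn1, Exph5 and Rspo1. A nucleus was a member when its barcode had at least 500 detected genes, at least 3 Rorb UMIs, at least 1 Slc17a7 UMI and at most 1 UMI of Gad1 and Gad2 together. It also had to hold at least 2 of 7 genes: Igfn1, Exph5, Rspo1, Gm20752, Gm13601, BC006965 and A830009L08Rik. A UMI is 1 counted RNA molecule. In all, 372 of 60288 deposited barcodes were members. They were chosen by measured values of these same nuclei, so the levels of the rule's genes, and any gene set against the other nuclei, are descriptions and carry no test.

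The study profiled nuclear RNA of hippocampus from mice that differ in monoacylglycerol lipase (MAGL), a hydrolase of the endocannabinoid 2-arachidonoylglycerol that the gene Mgll encodes. There were 4 libraries: wild type (WT), Total/global MAGL-KO (tKO), astrocyte specific MAGL-KO (aKO) and neuron specific MAGL-KO (nKO). The strain, age and number of animals behind a library, the deleted part of Mgll and the promoter or Cre line behind the astrocyte and neuron knockouts are not stated in the labels. With 1 library for each genotype, no difference between libraries could be tested against the spread between animals, and every interval below covers counting error only, at 95%.

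Rorb is the classical marker of the neurons in cortical layer 4, which receive thalamic input, and of intratelencephalic neurons in the neighbouring layers, which project within the forebrain. Cux1 and Cux2 mark the upper layers. Tshz2 is best known from near-projecting neurons of the deep layers, and Prox1 and Zbtb20 are transcription factors of hippocampal neurons. Endocannabinoids are made by neurons, act on the receptor Cnr1 of nearby axon terminals and are removed by hydrolases, of which MAGL is one.

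The WT library held 133 members, or 1.43% of its 9304 barcodes with at least 500 genes (1.20 to 1.69, exact Clopper-Pearson interval). The tKO library held 121 members, or 0.391% of 30929 barcodes (0.325 to 0.467). The aKO library held 44, or 0.413% of 10664 (0.300 to 0.554), and the nKO library held 74, or 0.836% of 8853 (0.657 to 1.05). The share was thus highest in WT and lowest in tKO and aKO, whose intervals overlap each other. Among excitatory nuclei alone (at least 1 Slc17a7 UMI and at most 1 of Gad1 and Gad2) the shares were 2.28%, 0.815%, 0.629% and 1.35% for WT, tKO, aKO and nKO. How much neighbouring cortex was taken with each hippocampus is not stated, and a difference between dissections cannot be told apart from one between genotypes.

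Depth enters the rule, because a deeper nucleus passes a count minimum more easily. Members had a median of 10189 UMIs in WT, 7686 in tKO, 7871 in aKO and 8783.5 in nKO, against 10138, 6648, 8207 and 9190.5 in the other excitatory nuclei of the same libraries. When every barcode was thinned to 3000 UMIs and the rule applied again, 18, 20, 2 and 7 nuclei met it, which is 0.216%, 0.0808%, 0.0198% and 0.0864% of the barcodes deep enough to be thinned. The WT share was again the highest, but its interval (0.128 to 0.342) then overlapped that of nKO (0.0348 to 0.178), which also overlapped that of tKO (0.0494 to 0.125). Scrublet, which scores barcodes that resemble a mixture of 2 nuclei, called 26.1% of the tKO barcodes doublets but 3.94%, 5.80% and 1.74% of those in WT, aKO and nKO. Among members it called 47 of 121 in tKO and 10, 4 and 2 in WT, aKO and nKO. The rate it was given to expect rose with the barcode count, at 0.8% per 1000 barcodes. That rate was thus highest for tKO, and the calls are not free of this setting. Without the called barcodes the share in tKO was 0.324% and those of WT, aKO and nKO were 1.38%, 0.398% and 0.828%.

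**Figure D1:**
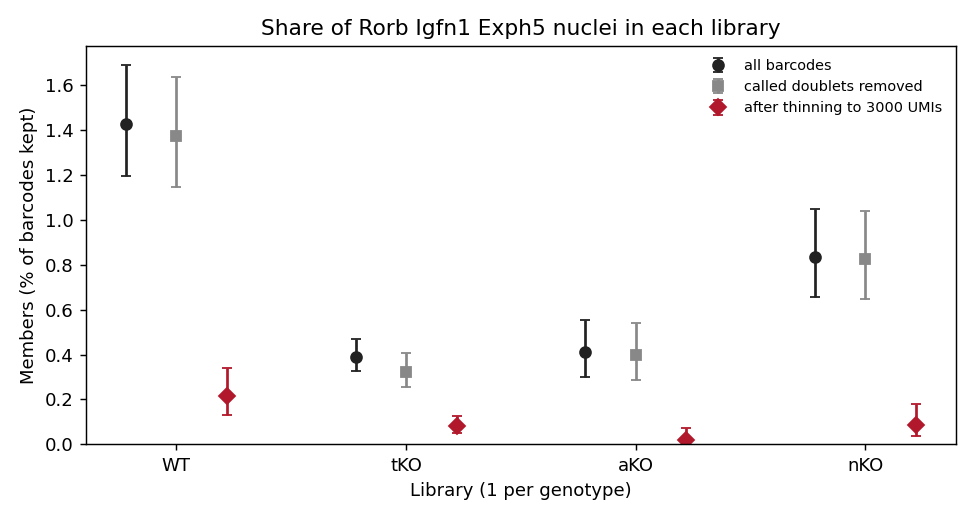
Share of members in percent of kept barcodes for each library, with 95% exact intervals, over all barcodes with at least 500 genes, without called doublets, and with the rule applied after thinning to 3000 UMIs. WT is highest under each of the 3 settings, at 1.43%, 1.38% and 0.216%.

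The libraries also differed in the sex of their nuclei. By Xist and 4 genes of the Y chromosome, members were 73 male and 43 female in WT, 113 male and 0 female in tKO, 26 and 8 in aKO, and 15 and 55 in nKO, the others being unclear. Of the member barcodes, 4, 6, 6 and 5 in WT, tKO, aKO and nKO also stood in another library, as did 657, 1252, 692 and 574 of all barcodes. The deposited libraries held 8945 to 31243 barcodes with medians of 5456 to 8904 UMIs.

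The threshold was not a gap in the data. Members held a median of 8 Rorb UMIs in WT, 6 in tKO, 6 in aKO and 8.5 in nKO, and 13, 17, 7 and 8 of them held exactly 3. Just outside the rule, 66, 168, 48 and 59 excitatory nuclei with 3 or more Rorb UMIs held only 1 of the 7 other genes, and 154, 324, 151 and 142 held none. A further 20, 28, 7 and 7 nuclei had 2 Rorb UMIs and at least 2 of the 7 genes.

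Igfn1, which encodes a protein of immunoglobulin and fibronectin domains, was sparse even in members. A UMI of it was found in 38 of 133 members in WT (28.6%), 18 of 121 in tKO (14.9%), 16 of 44 in aKO (36.4%) and 26 of 74 in nKO (35.1%). In the other excitatory nuclei, of the depths given above, the share was 1.55%, 1.63%, 0.806% and 1.10%. Exph5, an effector of the vesicle GTPase Rab27, was found in 63.9%, 45.5%, 34.1% and 56.8% of members and in 4.78% to 6.29% of the others. Rspo1, a secreted amplifier of Wnt signalling, was found in 24.1%, 24.0%, 25% and 21.6%, against 0.461% to 1.07%. The long noncoding RNA Gm13601 was found in 57.1%, 55.4%, 56.8% and 48.6%, against 1.11% to 2.62%. No member of any library held all 7 genes: the most in a nucleus was 6.

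In mm10, the mouse assembly GRCm38, Rorb lies at chr19:18930605-19111196 on the minus strand and Igfn1 at chr1:135953578-136006342 on the minus strand. Exph5 lies at chr9:53301670-53377514 and Rspo1 at chr4:124986430-125009099, both on the plus strand, and all 4 are protein coding. Gm20752 and A830009L08Rik are annotated as long intergenic RNAs, BC006965 as a processed transcript and Gm13601 as antisense. Whether the counting used strand is not stated in the labels, so reads of an antisense RNA and of the gene opposite cannot be told apart.

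The label of cortical excitatory neurons was set against marker lists. Mef2c, a transcription factor of maturing cortical neurons, stood at 1314 CPM (UMIs scaled to a common total for all members of a library) in WT, 1184 in tKO, 1152 in aKO and 1339.7 in nKO, against 235 to 361 CPM in other excitatory nuclei. Cux1 stood at 431, 262, 225 and 319.5 CPM, against 60.8 to 84.3, and Cux2 at 268, 161, 304 and 305 CPM, against 31.6 to 47.0. These 3 were higher in the members of each library, but their lists were mixed. Of the 6 markers of layer 2/3, 3 were higher in all 4 libraries and 3 (Otof, Ccbe1 and Calb1) lower, Ccbe1 at 29.0 CPM in WT against 116.5. Of the pan-cortical markers, Neurod6 was lower in all 4 libraries and Tbr1 was higher in some and lower in others. Of the 6 listed markers of layer 4/5 intratelencephalic neurons that the files hold, 5 were higher in all 4 libraries, but 1 of these, Rspo1, belongs to the rule. The list summed to 1311 to 1661 CPM against 343 to 441, of which Rspo1 gave 29.0 to 35.1 in members. Most of the sum came from Kcnh5 and from Il1rapl2, which gave 534 CPM in WT, 919 in tKO, 868 in aKO and 928 in nKO. Il1rapl2 had 0 UMIs in 66.2%, 47.9%, 59.1% and 58.1% of members, so its part of the sum came from a subset of them.

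Several lists of other types were lower in members, but not all. The 4 markers of layer 6b (Cplx3, Ccn2, Nxph4 and Moxd1) had 0 UMIs in every library's members. The layer 5 extratelencephalic list summed to 49.3 CPM in WT, 91.5 in tKO, 93.9 in aKO and 63.1 in nKO, against 252 to 275 in other excitatory nuclei. The layer 5 intratelencephalic list was mixed, at 113, 306, 215 and 154 CPM against 204, 242, 212 and 213 in WT, tKO, aKO and nKO. The near-projecting list stood at 330, 706, 665 and 303 CPM against 646, 727, 547 and 764, higher in aKO and lower in the other libraries. The subiculum list stood at 51.97, 40.7, 71.7 and 22.4 CPM against 55.05, 66.6, 45.3 and 59.97 in WT, tKO, aKO and nKO. It was likewise higher in aKO and lower in the other libraries, with 2 of its 4 genes lower in all 4. Prox1 stood at 5.61 to 12.9 CPM against 61.4 to 70.1, and Zbtb20 at 273 to 541 CPM against 2039 to 2891. The inhibitory list, which includes 2 genes of the rule, summed to 3.37 CPM in WT, 26.8 in tKO, 12.4 in aKO and 9.81 in nKO, against 13.2, 25.4, 14.2 and 15.4. It was thus not lower in tKO, where 15 Vip UMIs lay in 1 nucleus. Lhx6, a transcription factor of cortical interneurons, was at 0. The layer 6 corticothalamic list summed to 744 to 1182 CPM, against 1301 to 1482. The CA2 and CA3 list, which holds Coch and Spock1, summed to more in members of every library, at 1268, 1042, 1142 and 628 CPM against 790.2, 763, 853 and 565. Only 2 of its 6 genes, Coch and Elavl2, were higher in all 4 libraries, and 1, Amigo2, was lower in all 4. In nKO both Cpne4 (310 against 329 CPM) and Spock1 (37.8 against 69.4) stood lower in members. The oligodendrocyte list summed to 121, 215, 91.5 and 109 CPM, against 267, 357, 185 and 194, with 4 of 6 genes lower in all 4 libraries. The oligodendrocyte precursor list stood higher in WT, aKO and nKO (121, 136 and 104 CPM against 102, 76.1 and 85.7) and lower in tKO (116 against 138), most of it from Lhfpl3. The astrocyte list stood higher in tKO and nKO (41.6 and 32.2 CPM against 29.02 and 24.4). It stood lower in WT and aKO (22.9 and 19.8 CPM against 25.4 and 21.7). Of its 6 genes, 2 were higher in all 4 libraries and 1 was lower in all 4. Mbp, of the oligodendrocyte list, stood at 71.7 to 95.3 CPM, against 63.1 to 103 in other excitatory nuclei. Ttr, the transthyretin gene of choroid plexus, stood at 306 CPM in WT members but 9.25, 7.42 and 0 in tKO, aKO and nKO, and 98.5% of its WT UMIs came from 1 nucleus.

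Against the other excitatory nuclei of its own library, 136 of 5255 genes outside the rule were at least 2-fold higher in members of all 4 libraries and 160 of 5384 were at least 2-fold lower. Among the 25 leading genes were several of the extracellular matrix and cell surface, a grouping made after the values were seen. Col26a1, a collagen chain, had the largest smallest ratio. It stood at 178 CPM in WT, 123 in tKO, 148 in aKO and 178 in nKO, against 5.997, 8.22, 4.05 and 5.61 in the other excitatory nuclei, which is 15.0-fold in the library where the ratio was smallest. It was not limited to the members, since inhibitory nuclei held 72.9 to 77.7 CPM. Lama4, a laminin chain, stood at 140, 97.1, 42.0 and 153 CPM, against 13.4, 12.4, 3.88 and 13.3. Cdh6, a cadherin, stood at 276, 195, 171 and 289 CPM, at least 3.98-fold above the others. Deep cortical nuclei held 75.7, 94.5, 133 and 98.8 CPM of Cdh6, closer to the members. The matrix protein gene Coch, listed here as a marker of CA2 and CA3, stood at 54.0, 36.1, 32.1 and 72.9 CPM against 2.69 to 4.79. Pamr1, Scube1, Ptprm and Utrn were also among the 25 leading genes. Inhibitory nuclei held more Ptprm (845 to 1012 CPM) and Utrn (320 to 403) than the members did (128 to 160 and 133 to 219).

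Signalling genes and a channel were among the leading genes too. Kcnh5, a voltage-gated potassium channel of the ether-a-go-go family, stood at 647, 514, 368 and 607 CPM in WT, tKO, aKO and nKO, against 48.5 to 68.7. Rcan2, a regulator of the phosphatase calcineurin, stood at 386, 277, 213 and 327 CPM against 20.7 to 37.0. Inhibitory nuclei held 175 to 193 CPM of Rcan2 and deep cortical nuclei 78.6 to 102. Whrn, a scaffold protein, stood at 93.1, 80.4, 61.8 and 91.1 CPM against 7.81 to 11.5. Chn2, a GTPase-activating protein for Rac, was at least 5.55-fold higher, and Rims3, of the presynaptic active zone, at least 4.78-fold. Gm765 and Dkkl1 were at least 13.9-fold and 12.4-fold higher. The remaining leading genes were Plcxd2, Ankfn1, Rassf3, Herc6, A830036E02Rik, Lhfp, Rskr, Nudt4, Egr3 and Fhod3, with smallest ratios of 4.23 to 9.27. Inhibitory nuclei held 29.0 to 49.1 CPM of Whrn, 62.2 to 78.4 of Chn2 and 112 to 141 of Fhod3. Members held 61.8 to 93.1, 107 to 127 and 308 to 320 CPM of these. Of Gm765 and Dkkl1, inhibitory nuclei held at most 1.10 and 0.206 CPM. The 12 most depleted genes included Mdga1, Prox1, Glis3, Zbtb20 and the serotonin receptor gene Htr4. Htr4 stood at 22.9, 24.0, 34.6 and 18.2 CPM, against 152 to 169. Low levels of several of these were not particular to the members. Deep cortical nuclei held 151 to 617 CPM of Zbtb20, 2.48 to 17.1 of Prox1, 8.44 to 41.3 of Glis3 and 44.0 to 81.5 of Htr4. Their Mdga1 stood further from the members, at 26.8 to 43.6 CPM against 4.62 to 7.42.

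**Figure D2:**
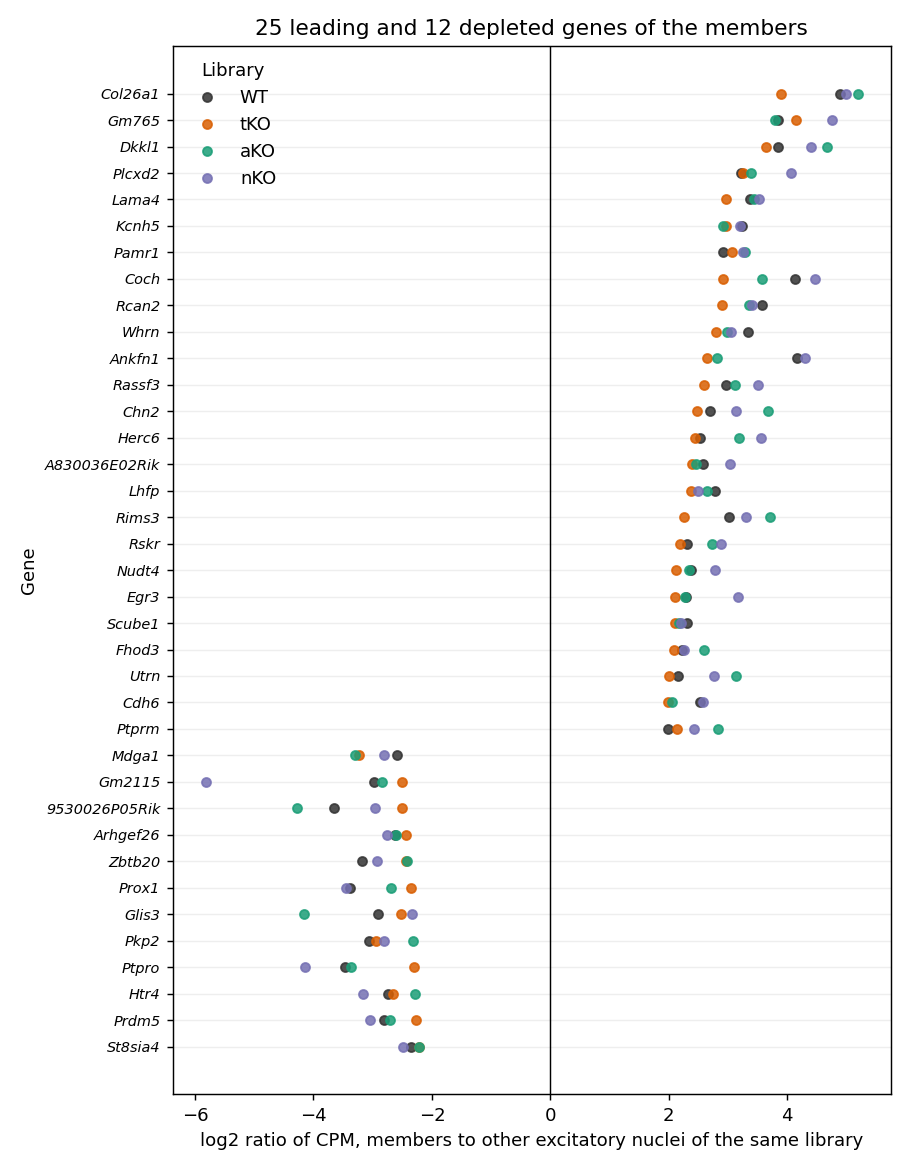
The log2 ratio of CPM, members to other excitatory nuclei of the same library, for the 25 leading and 12 depleted genes (rows), with 1 point for each library. All points of the leading genes lie at about 2 or above, and all points of the depleted genes lie below -2.

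Receptor genes set the members apart from the other excitatory nuclei in both directions. Gria4, an AMPA receptor subunit, stood at 1648, 1724, 1332 and 1837 CPM in WT, tKO, aKO and nKO, against 446 to 688. Gria1, another subunit of the same receptor, stood at 420.5, 741, 868 and 548 CPM, against 1931 to 2598. Grik1, a kainate receptor subunit, stood at 346, 266, 311 and 198 CPM against 55.0 to 81.5, and Grik4 at 53.3, 90.6, 98.9 and 70.1 against 283 to 411. Of the 15 ionotropic glutamate receptor genes, 4 were higher and 11 lower in all 4 libraries. Their sum was 9938, 10891, 11265 and 10167 CPM in members, against 13604 to 15061 in other excitatory nuclei. Deep cortical nuclei held 10912, 12205, 12566 and 10842 CPM, so a lower sum was not particular to the members. The metabotropic receptor gene Grm3 was higher (282 to 632 CPM against 104 to 245). Chrm2, a muscarinic receptor, stood at 200.5, 92.5, 183 and 192 CPM against 35.3 to 49.2. Rora, the closest relative of Rorb, stood at 1824, 2133, 1985 and 2336 CPM against 553 to 689.

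The members were not uniform. At least 1 UMI of Cux2 was found in 112 of 133 members in WT (84.2%), 70 of 121 in tKO (57.9%), 32 of 44 in aKO (72.7%) and 59 of 74 in nKO (79.7%). Dentate granule nuclei, with median depths of 7109 to 9779 UMIs, gave 1.94% to 7.71%, and inhibitory nuclei 45.6% to 61.6%. At least 4 UMIs of Tshz2 were found in 17 members of WT (12.8%, 7.63 to 19.7), 38 of tKO (31.4%, 23.3 to 40.5), 9 of aKO (20.5%, 9.80 to 35.3) and 6 of nKO (8.11%, 3.03 to 16.8). These Tshz2-rich members were most frequent in tKO, with an interval that overlaps that of aKO. Of them, 11 in WT, 15 in tKO, 7 in aKO and 4 in nKO also held at least 1 Cux2 UMI. The bounds on Tshz2 and Cux2 were chosen after the values were seen. After thinning every member to 3000 UMIs, 2 or more Tshz2 UMIs were found in 10.5%, 25.2%, 25% and 5.48%.

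**Figure D3:**
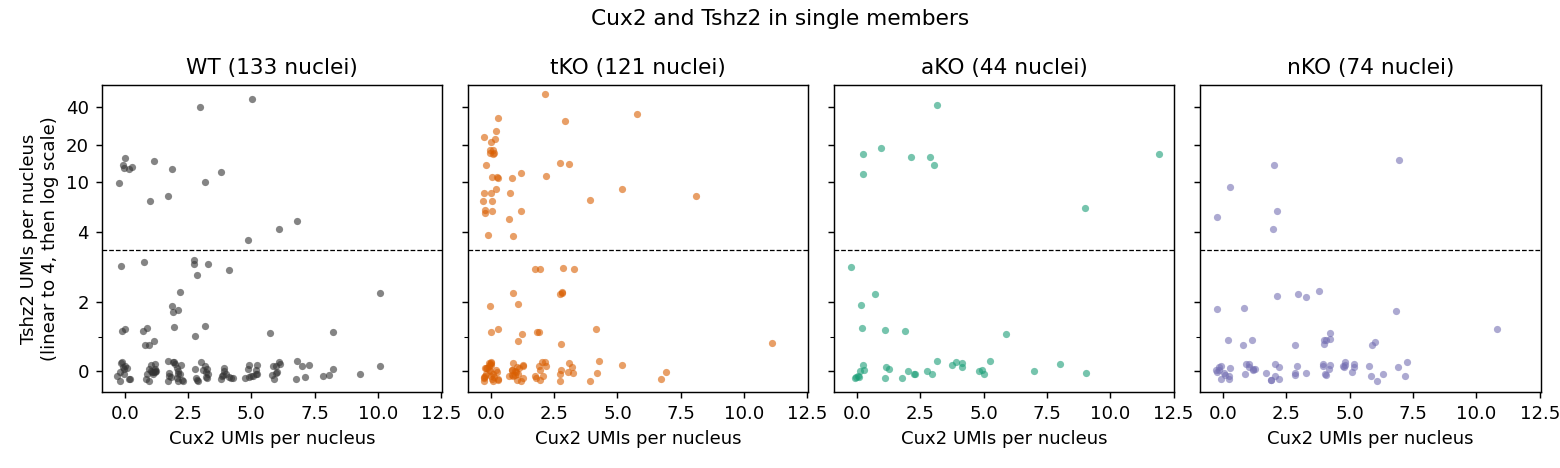
UMIs of Cux2 (horizontal) and Tshz2 (vertical, linear up to 4 and log above) in each member, 1 panel for each library, with points jittered. Above the dashed line lie the members with at least 4 Tshz2 UMIs, 17 in WT, 38 in tKO, 9 in aKO and 6 in nKO, and those of tKO are mostly without Cux2.

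Pooled over the libraries, Tshz2-rich members differed from members with Cux2 and at most 3 Tshz2 UMIs in several genes listed for cortical layers, not all in 1 direction. Etv1, an ETS transcription factor known from layer 5, stood at 211 CPM in the first and 23.1 in the second, Thsd7b at 288 and 30.5, and the kainate receptor gene Grik3 at 102 and 7.87. Deptor (61.9 and 34.2 CPM), Parm1 (66.3 and 15.3) and Hsd11b1 (19.5 and 9.26), listed with Etv1 for layer 5 intratelencephalic neurons, also stood higher. In tKO, however, Deptor stood at 54.2 and 54.9. Of the near-projecting list, which holds Tshz2, Vwc2l stood at 330 and 109 CPM. Trhr had 5 UMIs and 0, and Slc17a8 had 1 and 2. Foxp2, Fezf2 and Bcl11b, transcription factors of deep-layer projection neurons, stood at 74.9, 20.6 and 95.6 CPM in the first and 13.9, 3.24 and 26.8 in the second. Of the 6 listed genes of layer 6 corticothalamic neurons, Foxp2, Hs3st4, Rprm and Thsd7b were higher in the Tshz2-rich, while Ntsr1 stood at 5.43 and 7.87 CPM and Syt6 had 0 UMIs and 1. Rprm rested on 7 UMIs and 2. The 4 measured genes listed for layer 5 extratelencephalic neurons, Fezf2, Bcl11b, Npr3 and Pou3f1, all stood higher, but Pou3f1 (9.77 and 6.48 CPM) had a counting interval that includes no change and stood lower in aKO (17.2 and 19.4) and nKO (0 and 4.12). Of the layer 2/3 list, Rasgrf2, Calb1 and Stard8 stood lower, as did Cux2, which the split itself used. Otof also stood lower, but from 1 UMI and 4, with a counting interval that includes no change. Ccbe1 was mixed, higher in tKO (54.2 and 20.0 CPM) and aKO (129 and 14.6) but lower in WT (19.1 and 34.6) and nKO (12.3 and 24.7). Cux1 ran the other way, with 193 and 452 CPM, as did Lama4 (55.4 and 161), Egr3 (38.0 and 123) and Homer1 (871 and 1859.5). These sums weight the libraries unequally, since 38 of the Tshz2-rich nuclei came from tKO and 101 of the others from WT. In aKO the direction was the opposite for Homer1 (1066 and 840 CPM), Cux1 (258 and 252) and Otof (8.60 and 0), and in tKO for Ntsr1 (6.50 and 4.99). The Tshz2-rich nuclei were deeper, with a median of 16712 UMIs in WT and 11314 in tKO against 9737 and 6307. Scrublet called 22 of the 38 in tKO doublets, and 3 of 17, 1 of 9 and 0 of 6 in WT, aKO and nKO. Among members with Cux2 and at most 3 Tshz2 UMIs it called 17 of 55 in tKO, and 7 of 101, 2 of 25 and 2 of 55 in WT, aKO and nKO. The part of doublets and depth in this split was not tested.

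The 3 comparisons of members followed the design, each knockout library against WT, and they share the WT library. Genes with at least 100 UMIs over the members of the 4 libraries were compared, 5264 in all, and a gene was called when its CPM differed by at least 1.5-fold with a counting interval that left out no change. In tKO, 282 genes were called higher (5.36%) and 289 lower (5.49%). In aKO, 244 were called higher (4.64%) and 298 lower (5.66%), and in nKO 197 higher (3.74%) and 235 lower (4.46%). The median log2 ratio over all genes lay at -0.01 in each. These are calls between single libraries of 44 to 133 nuclei, and they do not tell genotype from animal, sex or dissection.

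Mgll, the targeted gene (chr6:88724412-88828360, plus strand), stood at 122 CPM in WT members, 127 in tKO, 116 in aKO and 135 in nKO. The log2 ratios to WT were 0.05 (-0.28 to 0.38), -0.07 (-0.57 to 0.40) and 0.14 (-0.23 to 0.50), so Mgll was called in none of the knockouts. The files count UMIs for the whole gene, and a transcript that lacks the deleted part would still be counted. Mgll was therefore no check of the labels here.

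Of 12 other endocannabinoid genes, 11 passed the minimum of 100 UMIs. Napepld, which makes N-acylethanolamines, stood at 47.9, 25.9, 22.2 and 40.6 CPM. It was called lower in tKO and aKO, with log2 ratios of -0.89 (-1.57 to -0.24) and -1.11 (-2.29 to -0.10). The aKO value came from 9 UMIs in 8 nuclei. Napepld stood at 16.3 CPM in Tshz2-rich members and 47.2 in those with Cux2 and at most 3 Tshz2 UMIs. Within the latter it stood at 57.1 CPM in WT, 32.5 in tKO and 19.4 in aKO. Cnr1, the cannabinoid receptor of the nervous system, stood at 30.4 CPM in WT, 70.3 in tKO, 37.1 in aKO and 26.6 in nKO and was called higher in tKO, with a log2 ratio of 1.21 (0.66 to 1.78). Cnr1 was also unequal among members, at 56.5 CPM in the Tshz2-rich and 24.99 in those with Cux2 and at most 3 Tshz2 UMIs. Over the latter alone the Cnr1 log2 ratio in tKO was 0.12. The hydrolases Faah, Abhd6 and Abhd12 and the synthases Dagla and Daglb were called in no comparison. Over the list, 1 gene was called higher and 1 lower in tKO, 0 and 1 in aKO and 0 and 0 in nKO, with median log2 ratios of -0.15, 0.10 and -0.03. Of all genes tested, 5.36% were called higher and 5.49% lower in tKO, 4.64% and 5.66% in aKO, and 3.74% and 4.46% in nKO.

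Of the genes highest in tKO, Rmst and Etv1 were also higher in the Tshz2-rich members. The long noncoding RNA Rmst stood at 77.6 CPM in WT, 248 in tKO, 124 in aKO and 35.0 in nKO (log2 ratio in tKO 1.67, 1.35 to 2.00). Etv1 stood at 55.3, 176, 91.5 and 47.7 CPM (tKO 1.67, 1.29 to 2.06). Over members with Cux2 and at most 3 Tshz2 UMIs, the tKO log2 ratios were 2.31 for Rmst and 2.00 for Etv1, and without called doublets 0.97 and 1.38. Over stricter members (at least 4 Rorb UMIs and 3 of the 7 genes) they were 2.27 and 0.94, and over males 2.96 and 1.27. A single nucleus gave 24.3% of the Rmst UMIs of WT. Hs3st2, a heparan sulfate sulfotransferase, stood at 32.4, 93.4, 69.2 and 60.3 CPM and was called higher in all 3 knockouts. Its log2 ratio of 1.53 in tKO was 0.95 without doublets and 0.73 over stricter members, and that of 1.10 in aKO was 0.30 over stricter members. Maml3, a coactivator of Notch, stood at 227 CPM in WT, 68.4 in tKO, 410.4 in aKO and 109 in nKO, and was thus called lower in tKO and nKO but higher in aKO. In the other excitatory nuclei its log2 ratios were -0.14, -0.11 and -0.08. Anxa11, Pdp1 and 4930587E11Rik were the other genes lowest in tKO, with log2 ratios of -1.66, -1.48 and -1.67.

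Gm17167 differed most, and in 2 knockouts. It had 1 UMI in the WT members (0.675 CPM), 99 in tKO (91.5 CPM), 0 in aKO and 61 in nKO (85.5 CPM). It is annotated as a processed transcript at chr4:42206998-42235313. The log2 ratios to WT were 7.08 (4.57 to 12.40) in tKO and 6.98 (4.45 to 12.31) in nKO. These ratios over all members rest on the 1 UMI of WT. Over males the values were 4.56 and 4.54, and after thinning 3.58 and 3.53. In both settings WT was left with 0 UMIs, and 3 counts took the place of 0. The lower values are set by that substitution, so they do not show a smaller difference. The log2 ratio in the other excitatory nuclei was 8.25 in tKO and 6.90 in nKO, so its difference was not limited to the members.

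In aKO the genes called lowest included leading genes of the members. Lama4 stood at 42.0 CPM against 140 in WT (log2 ratio -1.73, -2.54 to -1.02), and its ratio in the other excitatory nuclei was -1.79. After thinning to 3000 UMIs the ratio in members was -0.84. Ankfn1 stood at 19.8 against 79.0 (-2.0, -3.24 to -0.97), with UMIs in 4 nuclei of aKO and 51 of WT. Inhibitory nuclei held 24.0, 60.1, 55.5 and 35.1 CPM of Ankfn1 in WT, tKO, aKO and nKO, which in aKO was above the members. Prr16 stood at 1078 CPM in WT, 839 in tKO, 494 in aKO and 1043 in nKO (aKO -1.12, -1.34 to -0.91). Higher in aKO were Mical2, an actin-oxidizing enzyme, at 826 CPM against 431 in WT, Cdyl2 at 195 against 87.1, Gm33228 at 198 against 93.1, and Rxfp1, a relaxin receptor, at 89.0 against 29.7. The Rxfp1 log2 ratio of 1.58 was 0.74 over stricter members, 0.89 over males and 3.18 after thinning. In WT, 29.5% of the Rxfp1 UMIs came from 1 nucleus.

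In nKO, Spock1 stood apart. This gene of a secreted proteoglycan, testican-1, lies at chr13:57421195-57908332 on the minus strand. It stood at 451 CPM in WT members, 461 in tKO, 408 in aKO and 37.8 in nKO, a log2 ratio of -3.57 (-4.19 to -3.02) in nKO. A Spock1 UMI was found in 129 of 133 WT members, 111 of 121 in tKO, 40 of 44 in aKO and 17 of 74 in nKO. The nKO value was the only low one of the 4, and the gene was lower in that library beyond the members too, with log2 ratios of -2.01 in the other excitatory nuclei, -2.15 in deep cortical nuclei and -1.68 in dentate granule nuclei. Kcnh8, a potassium channel, had 0 UMIs in nKO against 46.6 CPM in WT, where its UMIs lay in only 5 nuclei. Plcb4, a phospholipase C, stood at 58.9 CPM against 137.

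Beside Hs3st2, the genes named as higher in all 3 knockouts were Il1rapl2, Deptor, 4930447C04Rik and Nim1k. The direction did not hold under every setting for Nim1k and Il1rapl2. Nim1k had log2 ratios of -0.22 in tKO over members with Cux2 and little Tshz2, -0.19 in tKO after thinning, -0.39 in aKO over stricter members and -0.10 in nKO over males. Il1rapl2 had -0.44 in nKO over stricter members. Il1rapl2, a synaptic adhesion molecule, stood at 534 CPM in WT, 919 in tKO, 868 in aKO and 928 in nKO. It was much higher in Tshz2-rich members (1093 CPM against 245), and over members with Cux2 and little Tshz2 its log2 ratios were 0.09, 0.52 and 0.90. Deptor, an inhibitor of mTOR, stood at 26.3, 61.0, 61.8 and 72.9 CPM, and over the same subset its log2 ratios were 1.97, 2.05 and 1.87. Named as lower in all 3 were Hspa8, Etv5, Gfod1, Ovol2 and Itgav. Over stricter members Ovol2 had a log2 ratio of 0.22 in tKO, against -0.86 over all members. The tKO log2 ratio of Itgav, -1.24 over all members, was -0.72 over those with Cux2 and little Tshz2. Hspa8, a constitutive heat shock chaperone, stood at 241, 123, 131 and 116 CPM, and its log2 ratios in other excitatory nuclei were -0.70, -1.02 and -1.0, close to those in members (-0.97, -0.88 and -1.05). Among male members alone its log2 ratios were -0.57, -0.28 and -0.67. Etv5, an ETS transcription factor, stood at 176, 101, 96.4 and 86.9 CPM, and Gfod1 at 300.4, 156, 188 and 174. A gene that is high or low in all 3 can come from the WT library alone, which all 3 share.

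**Figure D4:**
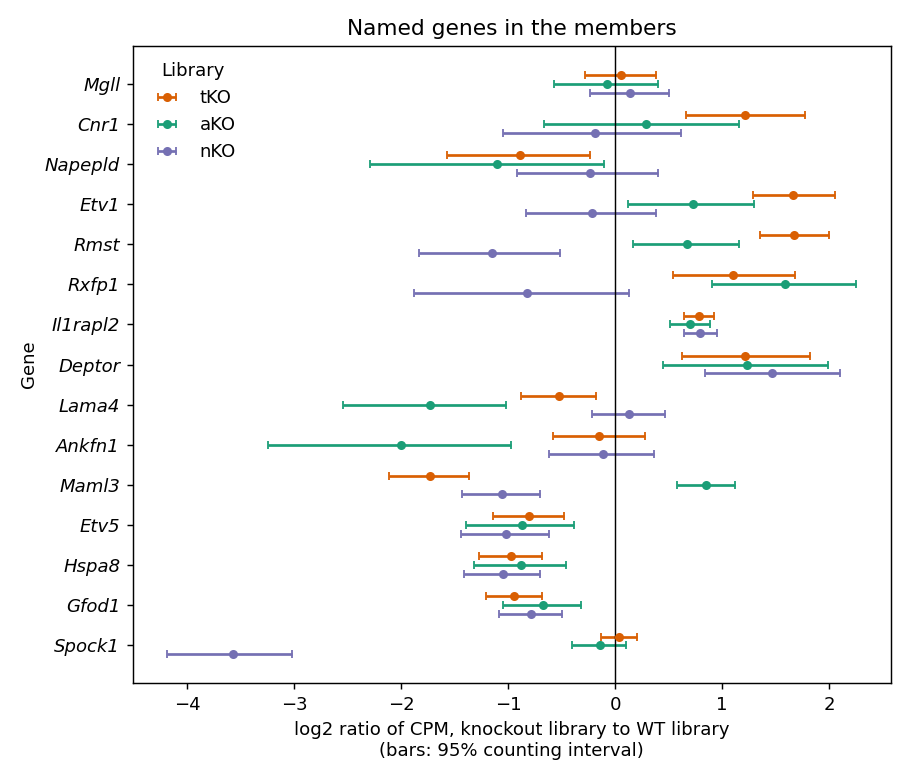
The log2 ratio of CPM to the WT library in members for 15 genes (rows), with 1 point for each knockout library and its 95% counting interval. Mgll lies near 0 in all 3, Deptor is higher and Hspa8, Etv5 and Gfod1 are lower in all 3, and Spock1 is low in nKO alone of these libraries.

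Immediate early genes, which neurons transcribe within minutes of activity or handling, were the list with the largest share of calls in aKO and nKO. Summed over 17 genes they stood at 2624 CPM in WT members, 2164 in tKO, 1429 in aKO and 4516 in nKO. Homer1, counted as a whole gene, alone gave 1650, 1172, 927 and 2457 CPM of these sums. Of the 13 with at least 100 UMIs, 10 were called higher and 0 lower in nKO, with a median log2 ratio of 1.32, and 0 higher and 9 lower in aKO, with a median of -1.08. In tKO 2 were called higher and 1 lower, with a median of -0.03. Over all genes tested, 3.74% were called higher in nKO, 5.66% lower in aKO, and 5.36% higher and 5.49% lower in tKO. The median over all genes was -0.01 in each comparison.

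Npas4, an activity-dependent transcription factor of neurons, stood at 30.4 CPM in WT, 39.8 in tKO, 17.3 in aKO and 177 in nKO, with a log2 ratio of 2.54 (2.04 to 3.06) in nKO. Fos stood at 29.0, 32.4, 4.94 and 75.7 CPM, from 43, 35, 2 and 54 UMIs. Egr4 stood at 27.0, 25.9, 2.47 and 108 CPM. The values of nKO were the highest and those of aKO the lowest in each of these. Btg2, an antiproliferative gene induced with them, stood at 76.3, 74.9, 9.89 and 153 CPM, and Homer1, whose short form is induced at synapses, at 1650.3, 1172, 927 and 2457 CPM. Arc, of the synaptic cytoskeleton, stood at 129, 76.7, 49.4 and 193 CPM. Nr4a2 and Nr4a3 were the 2 called higher in tKO, at 84.1 and 101 CPM against 33.7 and 46.6 in WT. Ccn1, a matricellular gene outside the list, stood at 10.1, 29.6, 0 and 122 CPM, and its nKO log2 ratio of 3.59 was 1.62 among males.

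**Figure D5:**
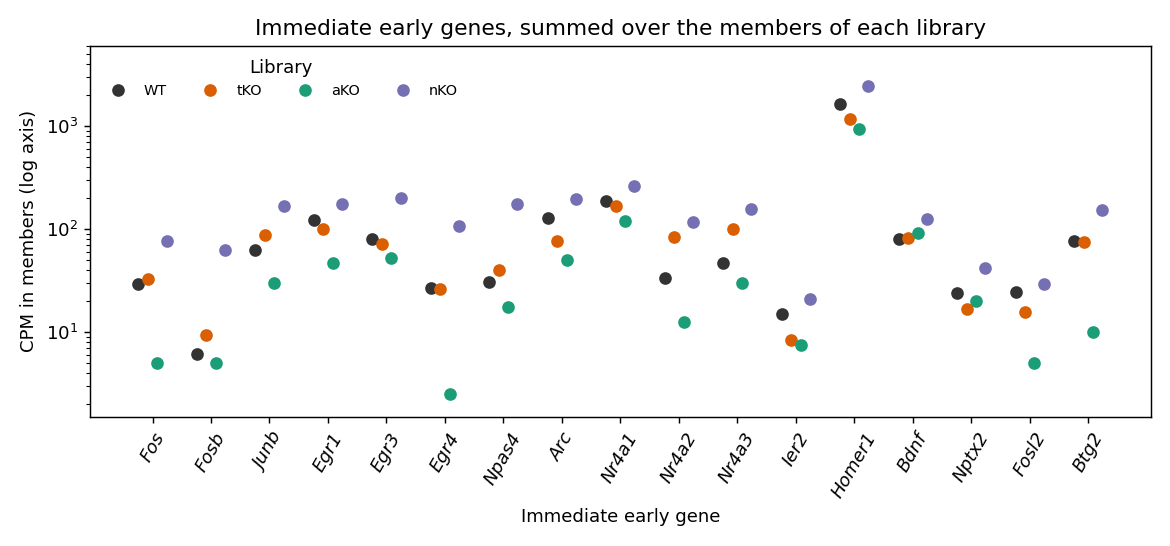
CPM (log axis) of 17 immediate early genes summed over the members of each library, 1 point for each library. The nKO point is the highest for all 17 genes and the aKO point is the lowest for 15, the exceptions being Bdnf and Nptx2.

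In sums that include Homer1, the order of the libraries was the same in members, other excitatory and deep cortical nuclei but not in dentate granule nuclei. WT did not stand above tKO in members for the 14 genes other than Homer1, Bdnf and Nptx2. After thinning to 3000 UMIs, members held a mean of 2.62 UMIs of these in WT, 3.01 in tKO, 1.11 in aKO and 6.25 in nKO. In other excitatory nuclei the list summed to 887 CPM in WT, 758 in tKO, 605 in aKO and 989 in nKO, in deep cortical nuclei to 1515, 1234, 783 and 1994, and in dentate granule nuclei to 319.6, 389, 329 and 346. It was thus higher in the members than in these 3 sets in every library. Within a library, male members stood at 2986 CPM and female at 2413 in WT, 1356 and 1183 in aKO, and 3839 and 5050.2 in nKO, and the male members of tKO at 2189. Among male members alone the nKO log2 ratios were 0.10 for Npas4 and -2.38 for Egr4, from 15 nKO nuclei with 147188 UMIs in all. These 2 ratios rest on few UMIs. The whole list stood higher in nKO males than in WT males, at 3839 against 2986 CPM. After thinning to 3000 UMIs, 3 or more UMIs of the 14 genes other than Homer1, Bdnf and Nptx2 were found in 55 of 133 members in WT (41.4%, 32.9 to 50.2), 50 of 119 in tKO (42.0%, 33.0 to 51.4), 4 of 44 in aKO (9.09%, 2.53 to 21.7) and 48 of 73 in nKO (65.8%, 53.7 to 76.5). The labels do not state when or how the animals were killed, and the part of handling was not tested.

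The DNA before 4 of these genes is shown as examples that hold TGACG, chosen after the values were seen. All 4 were highest in nKO and lowest in aKO, as were 15 of the 17 genes, although Npas4 in aKO and Nr4a1 in nKO were not called. Fosl2, which held no TGACG, and Btg2 were also among the 15. Each run is the 250 bases upstream of a RefSeq start site on the gene's own strand (GRCm38.p6), and capitals mark TGACG or its reverse complement CGTCA, the core of the cyclic AMP response element bound by CREB.
Npas4, chr19:4989972-4990221, minus strand: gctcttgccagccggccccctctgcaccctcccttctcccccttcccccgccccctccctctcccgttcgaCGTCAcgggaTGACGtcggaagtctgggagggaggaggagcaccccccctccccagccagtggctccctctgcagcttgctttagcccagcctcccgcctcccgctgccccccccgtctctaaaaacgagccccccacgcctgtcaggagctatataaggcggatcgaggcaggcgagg
Fos, chr12:85473640-85473889, plus strand: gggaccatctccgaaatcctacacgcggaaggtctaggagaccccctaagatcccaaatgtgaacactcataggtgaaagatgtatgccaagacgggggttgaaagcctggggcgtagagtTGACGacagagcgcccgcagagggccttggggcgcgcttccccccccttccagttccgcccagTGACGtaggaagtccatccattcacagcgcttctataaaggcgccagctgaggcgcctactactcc
Egr4, chr6:85513590-85513839, minus strand: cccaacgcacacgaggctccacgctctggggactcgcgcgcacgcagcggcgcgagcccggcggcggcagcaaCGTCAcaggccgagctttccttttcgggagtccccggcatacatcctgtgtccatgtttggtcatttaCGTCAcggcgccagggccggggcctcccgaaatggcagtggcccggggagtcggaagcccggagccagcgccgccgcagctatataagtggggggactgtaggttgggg
Nr4a1, chr15:101266596-101266845, plus strand: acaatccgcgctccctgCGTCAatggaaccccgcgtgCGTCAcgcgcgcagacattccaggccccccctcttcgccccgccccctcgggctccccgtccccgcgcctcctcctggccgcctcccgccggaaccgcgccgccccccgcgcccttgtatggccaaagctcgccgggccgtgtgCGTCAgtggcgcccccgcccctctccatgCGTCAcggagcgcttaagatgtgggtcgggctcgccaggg
Of the 17 genes, 12 had promoters in the RefSeq table, with 19 start sites between them. TGACG on either strand stood before at least 1 start of 11 of these 12 genes, against 5347 of 27025 genes (19.8%) over all promoters. By start site the share was 11 of 19 (57.9%), against 5836 of 32851 (17.8%) over all promoters. The full palindrome TGACGTCA, which contains TGACG, was found before 1 of the 12 genes, Btg2, and in 1.55% of all promoters. The CArG box of serum response factor was found in these 250 bases before none of the 12 and in 1.47% of all. Bases farther upstream were not searched, and Egr1 and Arc were not among the 12. Of the rule's genes, 0 of 9 promoters of Rorb and 7 others held TGACG, and among the leading genes 4 of 23. A match is a description of letters, and no binding was measured here.

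In the remaining lists, counts stand against 5.36% higher and 5.49% lower of all genes in tKO, 4.64% and 5.66% in aKO, and 3.74% and 4.46% in nKO. Among ionotropic glutamate receptors, 14 tested, 4 were called higher in tKO (Gria1, Gria3, Grik3 and Grik4), 2 higher in aKO (Gria1 and Grik4) and 1 each way in nKO. Gria1 had log2 ratios of 0.82 (0.67 to 0.97) in tKO, 1.05 (0.85 to 1.24) in aKO and 0.38 (0.20 to 0.57) in nKO. Of 11 GABA-A receptor subunits tested, 4 were called higher in tKO (Gabra2, Gabra3, Gabra5 and Gabrg3), 1 in aKO and 1 in nKO, and 0 lower in any. Of 5 metabotropic glutamate receptors tested, Grm8 was called higher in all 3 when every member was summed and Grm3 lower in aKO. Grm8 stood at 153, 460.4, 319 and 249 CPM. It stood at 641 CPM in Tshz2-rich members against 90.2 in those with Cux2 and at most 3 Tshz2 UMIs. In nKO, 25.3% of the Grm8 UMIs came from 1 nucleus, and without it, a setting chosen after seeing the data, the log2 ratio of 0.70 was 0.32 (-0.004 to 0.63), which ends the call. Of the channel genes, Kcnh5 was called lower in aKO. Of 6 neuromodulator receptors tested, Chrm2, Htr2c and Adrb1 were called lower and Htr1f higher in tKO, and Htr2c lower and Htr1f higher in nKO. Of 10 retinoid-related orphan receptor and clock genes tested, Per2 was called lower in tKO, Cry2 lower in aKO, and Per1 and Cry2 higher in nKO.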

How the data were processed

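The authors deposited raw UMI counts per gene and barcode for 4 single-nucleus libraries, as whole numbers. Per the submitters' processing notes, reads were processed with Cell Ranger ARC 2.0.0 and mm10. The labels' protocols name an iodixanol gradient for the nuclei and a 10x Genomics multiome kit. The members and the gene lists were chosen with earlier results of these data known. Libraries were joined on 20211 shared gene symbols, of which 19830 were found in GENCODE M21 (GRCm38). UMIs were summed over the members of a library and scaled to counts per 1e6 (CPM). Ratios have exact conditional binomial intervals and shares exact Clopper-Pearson intervals, at 95%. No test was run, since each genotype had 1 library. With 0 UMIs on one side, 3 counts over the library's members took the place of 0. No ratio is given where both sides had 3 or fewer. Other excitatory nuclei met the Slc17a7 and Gad criteria and were no members. Deep cortical nuclei had at least 3 Foxp2 UMIs and dentate granule nuclei at least 3 Prox1 UMIs, each with at least 2 further markers. Doublets were called by Scrublet in scanpy 1.11.5 at an expected 0.8% per 1000 barcodes and were kept unless stated. Male nuclei had no Xist UMI and at least 1 of Ddx3y, Uty, Kdm5d or Eif2s3y.

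Named were the 25 genes with the highest and the 12 with the lowest ratio to other excitatory nuclei, judged in each gene's least favourable library. For each knockout the 4 highest and 4 lowest genes by the interval bound nearest to no change were named, and 5 each way that were called in all 3, among 2274 genes at least as high in members as in all other barcodes and outside the rule, sex and mitochondrial genes. Of these, 8 were called higher and 13 lower in all 3. Members of fixed lists were also named. Some listed genes are not reported here. Tested on simulated counts for tKO with 5264 genes, of which 200 were changed, the call found 88.0% of genes raised 2-fold and 65.9% of those lowered 2-fold, and it called 1.52% of unchanged genes. Such counts hold no variation between animals or nuclei, so real calls are less sure.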

Additional observations from a re-analysis of the deposited data

How the results depend on the processing

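Applying the rule after thinning to 3000 UMIs lowered the shares of members to 0.216% in WT, 0.0808% in tKO, 0.0198% in aKO and 0.0864% in nKO, and removing called doublets lowered that of tKO to 0.324%. From 571 in tKO, 542 in aKO and 432 in nKO the counts of called genes went to 202, 230 and 144 after thinning and to 142, 204 and 120 at 2-fold, and in tKO and nKO to 292 and 223 over stricter members (at least 4 Rorb UMIs and 3 of the 7 genes) and to 1081 and 788 with a minimum of 20 UMIs. Over members with at least 1 Cux2 and at most 3 Tshz2 UMIs, a setting chosen after seeing the data, they were 334 in tKO and 277 in nKO. Doublet removal, male members alone and median-of-ratios scaling kept each count within 1.5 times. The Mgll log2 ratio in tKO was 0.52 after thinning. Of the named ratios, these changed sign: Egr4 in nKO over males (-2.38), Il1rapl2 in nKO (-0.44), Nim1k in aKO (-0.39) and Ovol2 in tKO (0.22) over stricter members, and Nim1k in tKO with Cux2 and little Tshz2 (-0.22) and after thinning (-0.19) and in nKO over males (-0.10). The cause was not tested, and the Egr4 value over males rests on few UMIs from 15 nKO nuclei. All 25 leading genes stayed at least 2-fold higher in each library without doublets, after thinning and over stricter members. No paired analysis was possible because each genotype had 1 library. With 44 members, aKO gave the widest intervals for the log2 ratios of Mgll and the other endocannabinoid genes. For the share of members the interval of WT was the widest. The minimum of 100 UMIs was a choice.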
